A study of Mus musculus and synthetic RNA with 74 samples.

Results

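The 10 genes Ccdc69, Sat2, Ccdc92b, Slc43a2, Myo1c, Acaca, Bcas3, Scpep1, Gm15698 and Coil lie on mouse chromosome 11, up to about 20 Mb away from Mettl16, the gene that was disrupted in this study. They were selected by the genotype comparisons, in which they stood out between Mettl16 KO, HET and WT embryos, and were then picked up by symbol in the deposited tables. All 10 of 10 were listed at both stages, among 20330 genes at E2.5 and 21199 genes at E3.5, and they were covered by 169 exons and 161 introns. The fold changes and p-values on which they were selected are the authors' own comparisons and were not used here. The tables analysed give, beside those, 1 mean per stage over all embryos, so no value per embryo or per genotype could be described and no difference between genotypes could be tested.

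Single embryos were sequenced at the 16-cell morula stage (E2.5) and as blastocysts (E3.5). The E2.5 mean was taken over 31 embryos, of which 5 were WT, 14 HET and 12 KO, and the E3.5 mean over 39 embryos, of which 18 were WT, 9 HET and 12 KO. The embryos came from crosses between superovulated Mettl16+/- females and Mettl16+/- males of 1 mutant line, in which a triple-stop cassette had been inserted into exon 3, and KO, HET and WT refer to Mettl16-/-, Mettl16+/- and Mettl16+/+ embryos. The targeted zygotes were B6D2F1/J and the founders were crossed to C57BL/6JRj, and genotypes were assigned from reads over the mutated site. Since the genotypes were mixed in different proportions at the 2 stages, and since these genes were selected for genotype differences, a stage mean depends on that mix. The 4 libraries of the series from in vitro methylation reactions (2 of input and 2 of m6A immunoprecipitation) hold randomised RNA oligonucleotides and were not used here.

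METTL16 places N6-methyladenosine (m6A) on structured RNAs that carry a short conserved motif, and is best known for methylating the U6 small nuclear RNA and the hairpins of the Mat2a mRNA, which encodes the enzyme that makes the methyl donor S-adenosylmethionine. In a cross between carriers of an edited chromosome, alleles of neighbouring genes on that chromosome are inherited together with the edit, and this linkage weakens with distance as recombination separates the loci. The morula-to-blastocyst transition is when the trophectoderm, the outer epithelium, is set apart from the inner cell mass.

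On the proximal side of Mettl16 (mm10, chr11:74770863-74818692, plus strand) lay 3 of the genes. Ccdc69, whose product is a coiled-coil protein of the mitotic spindle, was the farthest, 19.7 Mb away on the minus strand (chr11:55049738-55078131). Sat2, which encodes a small acetyltransferase related to the spermidine/spermine acetyltransferase, lay 5.15 Mb away (chr11:69622109-69623869), and Ccdc92b, a coiled-coil gene, was the nearest at 129 kb (chr11:74619605-74641516), with 2 annotated genes between it and Mettl16. The other 7 lay distally. The amino acid transporter gene Slc43a2 (chr11:75531694-75577572) and the gene of the unconventional myosin Myo1c (chr11:75651509-75674643) were 713 kb and 833 kb away and 73.9 kb apart from each other. Acaca (chr11:84195438-84401651), which encodes the acetyl-CoA carboxylase of fatty acid synthesis, and Bcas3 (chr11:85353164-85826058), whose product acts in cytoskeletal organisation and cell migration, lay 9.38 Mb and 10.5 Mb away. The most distal members formed a cluster 14.1 to 14.2 Mb away. In it, the serine carboxypeptidase gene Scpep1 (minus strand, chr11:88924020-88955442) was separated by 9.22 kb from Gm15698 (minus strand, chr11:88964665-88966917), an elongin B-like gene also known as Elobl, and this by 7.02 kb from Coil (chr11:88973935-88991613), the gene of coilin, the scaffold protein of Cajal bodies, where small nuclear RNPs mature. Between each gene and Mettl16 the table annotated 2 to 416 genes, with a median of 212.5. The nearness to Mettl16 was part of the selection and is not a result.

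Of the 10 spliced transcripts, 4 shared a stretch of at least 80 nt, the maximal read length, at 90% identity or more with a transcript of a gene that does not overlap them. For Slc43a2 and Myo1c these were short pieces of 210 and 137 nt. For Acaca and Gm15698 they made up 67.7% and 55.0% of the transcript. In Gm15698 this share joins 2 matches, to the transcribed pseudogene 2210409E12Rik and to a GENCODE transcript of Coil (92.5% identity over 305 nt). The sequences are given here because both genes had low exon counts against their gene-level estimates, as described below. Between these measures only the percentile of Gm15698 moved by more than 10 points. Each of the 2 pairs shows 60 coding bases of the member and the aligned bases of the look-alike (GRCm38), with differing bases in capitals. The Gm15698 bases are chr11:88964981-88965040 (minus strand), those of the transcribed pseudogene 2210409E12Rik are chr11:88972854-88972913 (plus strand), and those of Acaca are chr11:84243286-84243345 in its exon 10 (plus strand), beside the pseudogene Gm5182 of chromosome 12.
Gm15698: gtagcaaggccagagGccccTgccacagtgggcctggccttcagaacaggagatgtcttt
2210409E12Rik: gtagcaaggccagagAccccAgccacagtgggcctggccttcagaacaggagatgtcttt
Acaca: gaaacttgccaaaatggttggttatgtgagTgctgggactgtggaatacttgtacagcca
Gm5182: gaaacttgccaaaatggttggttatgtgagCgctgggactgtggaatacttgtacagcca

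Over the whole alignment, Gm15698 and 2210409E12Rik were 90.1% identical over 332 nt with a longest identical run of 112 nt, so that 33 of 253 windows of 80 nt held no difference. The pseudogene sits between Gm15698 and Coil, and 216 of its 377 nt are also annotated in GENCODE as an untranslated exon of an upstream-starting Coil transcript (exon at chr11:88972621-88972853), which the deposited exon table does not list for Coil. To Elob on chromosome 17, the gene of elongin B itself, Gm15698 was only 82.5% identical over 257 nt, with no identical window of 80 nt. Acaca and Gm5182 were 99.2% identical over 6118 nt, with 20 mismatches, and 72.4% of the 6039 windows of 80 nt were identical.

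The level of each gene is given as the mean normalised count of the stage (Salmon estimates summed to genes, normalised by the authors). These are means without an error, since values of single embryos were not analysed here, and because each stage was normalised by itself, stages are compared by the percentile of a gene among all genes listed at that stage, where the median gene had a mean of 36.4 at E2.5 and 51.6 at E3.5. At E2.5, 9 of the 10 genes were above the median gene, and at E3.5, 8 of 10. The median percentile of the 10 genes was 79.9 at E2.5 and 78.0 at E3.5. Among the 642 and 670 listed genes within 20 Mb of Mettl16, the median gene had a mean of 62.7 and 84.8. Mettl16 itself had a mean of 778 at E2.5 (percentile 81.2) and 669 at E3.5 (percentile 76.0).

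The abundant members were Scpep1, Bcas3, Gm15698, Myo1c and Coil. Scpep1 had a mean of 6755 at E2.5 (percentile 97.0) and 4135 at E3.5 (percentile 94.6). The mean of Bcas3 was 5114 at E2.5 (percentile 95.9) and 1869 at E3.5 (percentile 88.3). Myo1c stood at 1211 (percentile 85.6) and 2720 (percentile 91.8). Bcas3 thus held a lower place among all genes in blastocysts than in morulae, and Myo1c a higher one. On summed exon counts the percentiles of Myo1c were 85.7 and 87.0, a smaller gap, and its summed exon mean over its Salmon mean was 0.780 at E3.5 (percentile 6.85 of the genes with introns and a Salmon mean of at least 100). Coil held nearly the same place at both stages, with means of 1042 (percentile 84.2) and 1198 (percentile 83.4). For Gm15698 the means were 1638 (percentile 88.5) and 9831 (percentile 97.9). Part of its transcript is shared with the copies described above, and the part of shared reads in these means was not tested. On the summed exon counts of the second table its percentiles were 76.4 and 80.4.

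Acaca and Ccdc92b were of intermediate level. Acaca had a mean of 356 at E2.5 (percentile 72.7) and 512 at E3.5 (percentile 72.5), and Ccdc92b had 460 (percentile 75.6) and 233 (percentile 63.3). The remaining 3 genes were at low counts at 1 or both stages. Sat2 stood at 172 (percentile 65.2) at E2.5 and at 26.4 (percentile 44.6) at E3.5, the widest gap in place among the 10 genes. Slc43a2 held the higher place in blastocysts, with 12.6 (percentile 39.9) at E2.5 and 85.6 (percentile 54.1) at E3.5. Ccdc69 was near the median gene with 41.9 (percentile 51.3) and 27.2 (percentile 44.9). In bulk RNA of whole embryos, fewer cells of a type and less RNA per cell cannot be told apart.

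**Figure D1:**
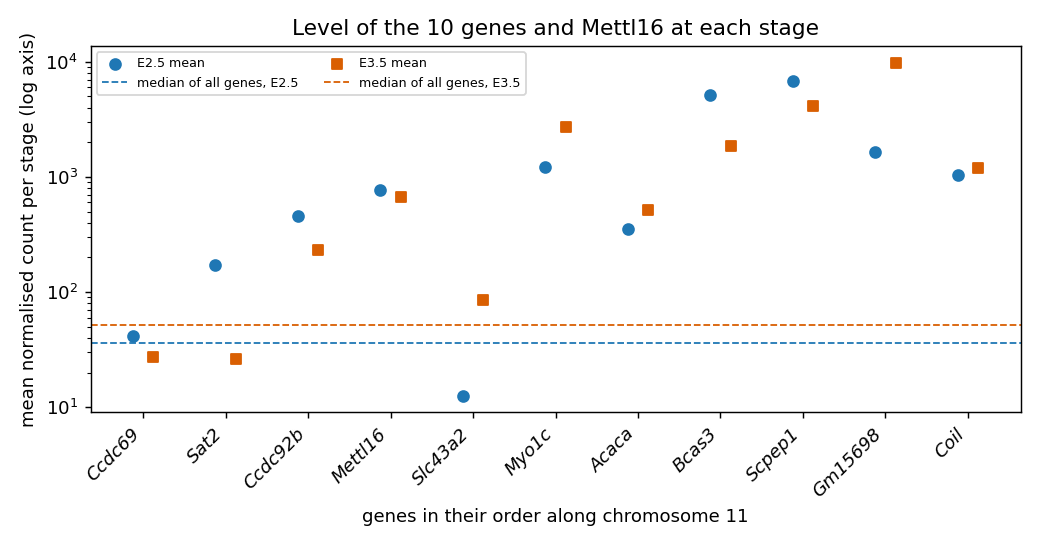
Mean normalised count per stage (log axis) of the 10 genes and Mettl16 in their order along chromosome 11, with circles for E2.5 (31 embryos), squares for E3.5 (39 embryos) and dashed lines for the median of all genes listed at that stage. Slc43a2 at E2.5 and Sat2 and Ccdc69 at E3.5 lie below the line of their stage. The widest gaps between the 2 points of a gene are those of Slc43a2, Sat2 and Gm15698, but each stage was normalised by itself. Each point is the authors' mean and has no error bar.

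To compare levels between the genes, the Salmon mean was divided by the summed length of the annotated exons. On this scale of mean normalised count per kb, Scpep1 was the highest at E2.5 with 3257, followed by Gm15698 (2018), Bcas3 (1399), Coil (400), Myo1c (214), Sat2 (195), Ccdc92b (115), Acaca (39.4), Ccdc69 (29.5) and Slc43a2 (1.73). At E3.5 the order was Gm15698 (12107), Scpep1 (1994), Bcas3 (511), Myo1c (480), Coil (459), Ccdc92b (58.3), Acaca (56.7), Sat2 (29.9), Ccdc69 (19.2) and Slc43a2 (11.8). Without values of single embryos it cannot be said which neighbours in these orders differ beyond their spread. Per length, Acaca ranked at percentile 61.0 at E2.5 and 60.1 at E3.5, lower than by count, as its exons add up to 9032 nt.

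Markers of the embryonic lineages were present at both stages. Of the trophectoderm markers, all 5 were above the median gene at both stages. Their means ran from 171 for Cdx2 to 5278 for Tfap2c at E2.5, and from 1849 for Tfap2c to 35173 for Krt18 at E3.5. Krt8 had 651 at E2.5 (percentile 79.3) and 30838 at E3.5 (percentile 99.4), whereas Tfap2c held the lower place at E3.5 (percentiles 96.1 and 88.2). Of the 4 inner cell mass markers, 3 were above the median gene at E2.5 and all 4 at E3.5. Sox2 was below it at E2.5 with 13.6 (percentile 40.6), and Pou5f1 had 9017. Pou5f1 held the lower place at E3.5 (percentiles 97.8 and 93.5) and Nanog the higher (77.7 and 94.7). All 4 primitive endoderm markers were above the median gene at both stages. Among them, Gata4 held the lower place at E3.5 (percentiles 86.1 and 64.1) and Pdgfra the higher (59.3 and 86.5). Markers of cumulus and granulosa cells summed to 1.74 and 2.98. Those of the uterine and oviduct epithelium summed to 468 at E2.5, mostly Ovgp1 with 320, and to 123 at E3.5, mostly Muc1 with 97.7. Ovgp1 had 25.3 and Ltf 0.036 at E3.5, against 129 for Ltf and 19.3 for Muc1 at E2.5. Of the blood markers only Hba-a1 was at a mean of at least 10, with 49.6 and 12.0, and the part of such transcripts in the levels of the 10 genes was not tested. Means summed to 23557112 over all genes at E2.5 and to 27145016 at E3.5.

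The second pair of tables counts reads per exon and intron, which allows each gene to be compared with itself. The summed exon mean divided by the Salmon mean had a median of 1.90 at E2.5 over 7888 genes with at least 1 intron and a Salmon mean of at least 100, and of 1.26 at E3.5 over 9085 genes. In genes of 1 exon it was 0.916 and 0.829, and whether a read that spans several exons was counted in each of them is not given in the sources used here. Of the 10 genes, Gm15698 had the lowest ratio at both stages, 0.524 at E2.5 (percentile 3.28) and 0.120 at E3.5 (percentile 2.36). Its summed exon mean was 859 at E2.5 and 1182 at E3.5, against Salmon means of 1638 and 9831. Next to it, the exon of 2210409E12Rik had 2406 at E2.5 and 22685 at E3.5, beside Salmon means of 1375 and 19907. The E3.5 Salmon level of Gm15698 was therefore not matched by reads placed on its own exons, and its level has to be taken as uncertain. Elob had Salmon means of 4141 and 7616.

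Acaca was also low in this ratio, with 0.957 (percentile 5.67) at E2.5 and 0.645 (percentile 5.18) at E3.5. Ccdc92b, which had no match to a transcript of another gene, was at percentile 6.60 at E2.5 and 9.99 at E3.5. The terminal exon of Ccdc92b held 89.2% of its exon counts at E2.5 and 96.8% at E3.5. Genes of 1 exon had low ratios too, with medians of 0.916 and 0.829, whereas Ccdc92b was ranked among genes with introns. Whether a low ratio goes with a look-alike was not tested. The exons of Acaca differed in level along the gene. Exons 1 to 7, 5′ of the shared stretch, had 109 mean normalised counts per kb at E2.5, with single exons from 72.1 to 144. The 45 exons that lie wholly within the shared stretch, exons 9 to 53, had 28.4 per kb, with single exons from 13.98 to 60.9, so the 2 ranges did not overlap. The level already fell within exons 1 to 7, from 144 in exon 2 to 72.1 in exon 7. Exon 8, across the 5′ edge of the stretch, had 64.7. Exons up to the middle of the Acaca transcript held 54.0% of its exon counts at E2.5 (percentile 87.2 of 7162 genes). At E3.5 the values were 87.2 per kb for exons 1 to 7 (41.1 to 124) and 16.4 per kb for exons 9 to 53 (3.17 to 71.9), and the ranges overlapped. The terminal exon 54, most of which lies outside the shared stretch, had 31.1 per kb at E2.5, within the range of the shared exons, and 71.7 at E3.5. The shared exons made up 65.4% of the exon length but 49.2% of the exon counts at E2.5 and 29.4% at E3.5. How reads that match both places were treated is not given in the sources used here, Gm5182 was not listed in the gene tables, and the part of the pseudogene in the exon values was not tested.

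**Figure D2:**
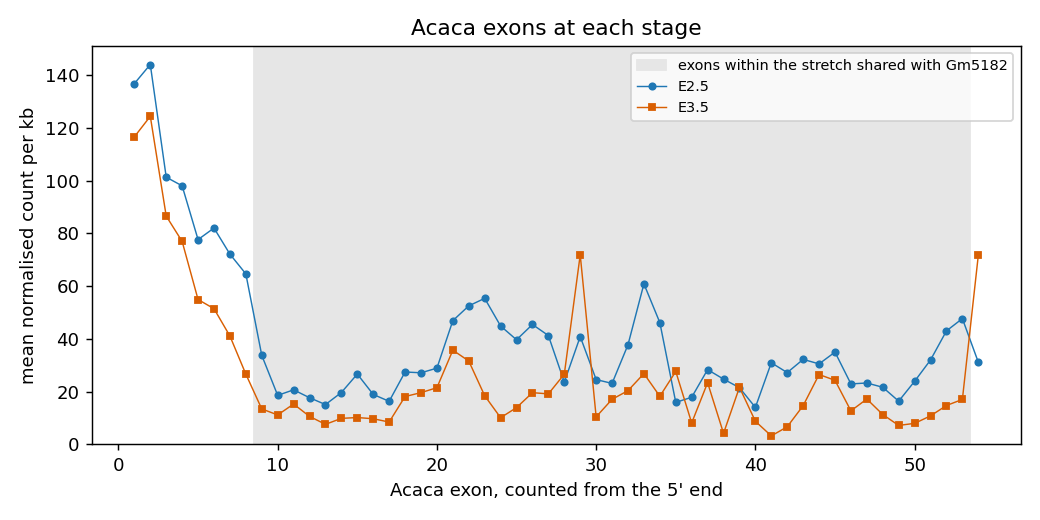
Mean normalised count per kb of each of the 54 Acaca exons, counted from the 5′ end, at E2.5 (circles) and E3.5 (squares), with exons 9 to 53 shaded, which lie within the stretch shared with Gm5182. Exons 1 to 7 sit between 72.1 and 144 per kb at E2.5, above all shaded exons of that stage. The level already falls within them, and exon 8, at the edge of the shading, has 64.7. The terminal exon 54 has 31.1 per kb at E2.5 and 71.7 at E3.5.

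The introns of Coil differed in level from each other, and their level against the exons differed between the stages. For each gene the median over introns of the mean normalised count per kb was set against the mean per kb of its exons. In Coil this intron level was 0.941% of the exon level at E2.5 (percentile 67.7 of 7879 genes) and 6.00% at E3.5 (percentile 92.0 of 9077 genes), whereas the median gene had 0.511% and 0.965%. The difference between the stages was at percentile 97.4 of the 7347 genes with a value at both. Of the other members, Ccdc92b was at 98.2, Slc43a2 at 97.3 and Sat2 at 95.6, and the rest were at 71.8 or below. Slc43a2 at both stages and Sat2 at E3.5 had a Salmon mean below 100. They are thus not among the genes they were ranked against, and their values rest on few counts, as given below. Intron 1 of Coil had a mean normalised count of 46.8 at E2.5 and 377 at E3.5, and intron 5 had 40.7 and 214. Intron 4 had only 10.1 and 27.0, and intron 6 had 5.50 and 22.5, although both are of like length to intron 5 (2366 and 2600 nt, against 2892 nt). Per kb, intron 2, of 121 nt, was the highest at both stages with 37.7 and 118, and intron 6 was the lowest with 2.11 and 8.66. Exon 1 had 224 at E2.5 and 68.3 at E3.5, and the terminal exon 7 had 414 and 715, while the summed exon mean was 1534 and 1462. As each stage was normalised by itself, these counts are to be read within a stage.

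Splice sites are shown for Coil introns 1 and 5, which had the highest counts at both stages, beside introns 4 and 6. Per kb, intron 1 had 6.82 at E2.5 and 54.9 at E3.5, against 4.25 and 11.4 for intron 4. The sites of introns 2 and 3, of 121 and 227 nt, are not shown. Each line has 10 exonic and 20 intronic bases around the 5′ splice site of the intron (GRCm38, plus strand), with the first 2 bases of the intron in capitals; they start at chr11:88974193 for intron 1, chr11:88982641 for intron 4, chr11:88985077 for intron 5 and chr11:88988058 for intron 6.
Intron 1: acagcctcagGTgcgcgggagcgcgcgggg
Intron 4: tgactacaagGTaagcctgtttctatgaaa
Intron 5: tcgctaccggGTgagtgtggcgcatgctcg
Intron 6: ggagaagaggGTaggcatgctagccactct

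The 3′ splice sites of the same introns follow with 20 intronic and 10 exonic bases and the last 2 bases of the intron in capitals; they start at chr11:88981049, chr11:88984997, chr11:88987959 and chr11:88990648.
Intron 1: cttctctcctcttccaacAGggttaagtta
Intron 4: cagtcttttatttttggaAGgaaggaaaaa
Intron 5: tctgtaccctctggtttcAGctttgaaaga
Intron 6: gttttgtctttttcccttAGatcaccgtgc

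All 6 Coil introns began with GT and ended with AG, as did 154 of the 155 introns of the 10 genes (the remaining 1, in Acaca, had GC and AG). Repeats, which are in lower case in the reference, covered 49.2% of intron 1 and 25.6% of intron 5, and 51.6% and 51.3% of introns 4 and 6. In introns 2 and 3 they covered 30.6% and 20.7%. A relation between repeats and intron counts was not tested. The level of introns 1 and 5 per genotype was not examined here.

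**Figure D3:**
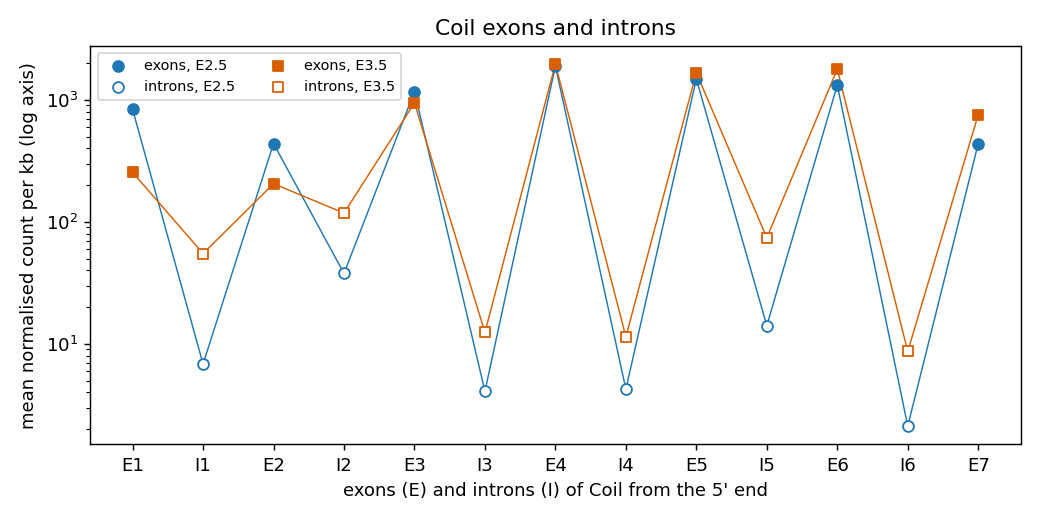
Mean normalised count per kb (log axis) of the 7 exons (filled) and 6 introns (open) of Coil in order from the 5′ end, at E2.5 (circles) and E3.5 (squares). The E3.5 points lie above the E2.5 points in all 6 introns, and below them in exons 1 to 3. Each stage was normalised by itself, so points are to be read within a stage.

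Of the other genes, the intron level was above that of the median gene at both stages in Ccdc92b, Sat2, Slc43a2 and Acaca. In Ccdc92b it was 3.71% of the exon level at E2.5 (percentile 92.4) and 10.2% at E3.5 (percentile 96.2), and in Sat2 it was 4.34% (percentile 93.5) and 7.94% (percentile 94.6). The 5 Sat2 introns are only 69 to 338 nt long, and at E3.5 all 5 together had a mean of 2.90. Slc43a2 had 1.32% and 6.34%, at a summed exon mean of 14.6 and 86.6, with 7 of its 15 introns at 0 at E2.5. These values depend on how introns are combined: with the summed intron mean over the summed intron length the intron level of Slc43a2 was 16.1% at E2.5 and 14.2% at E3.5, so that the order of the stages turned, and without the intron that overlaps Mir3971 the median was 0.66% at E2.5. For Acaca, where the median gave 1.58% and 2.27%, the summed introns gave 2.60% and 5.88%. Scpep1 had the lowest intron level of the 10 genes at E2.5, 0.0704% (percentile 7.67; 0.111% over the introns free of Scpep1os), and also at E3.5, 0.198% (percentile 12.9). Across all genes 77.2% had a higher value at E3.5 than at E2.5, and of the 10 genes 9 did, so that the direction alone is no mark of these genes.

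In Bcas3, 54.8% of the summed intron mean at E2.5 and 71.2% at E3.5 fell in intron 24, which is 217790 nt long and had 2504 and 2761. This intron holds the antisense genes Bcas3os1 and Bcas3os2, the microRNA gene Mir5110 and part of 2610027K06Rik, and since the libraries kept no strand, their reads cannot be told apart from those of the intron. Per kb it had 11.5 at E2.5, below several other introns, and 12.7 at E3.5, the highest of the numbered introns, followed by intron 18 with 7.02. The exon 18 of 45 nt had 69.6 per kb at E2.5, against a median over the Bcas3 exons of 4849, and 22.9 per kb against 669 at E3.5. Scpep1 overlaps its antisense gene Scpep1os, 1 of whose 5 exons lies on a Scpep1 exon. The exons of Scpep1os had 1180 at E2.5 and 338 at E3.5 by exon counting, beside Salmon means of 65.5 and 122.

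The exon counts of the 10 genes lay further towards the 3′ end in blastocysts, as in nearly all genes. The share of a gene's exon counts in its 3′ terminal exon had a median of 19.6% at E2.5 and 34.9% at E3.5 over genes of at least 4 exons, and 91.4% of 6712 genes with a value at both stages had the higher share at E3.5. All 9 of the members with at least 4 exons did so. The difference was widest in Myo1c, with 21.8% at E2.5 and 62.6% at E3.5 (percentile 97.4 of the differences), and in Slc43a2, with 42.7% and 76.8% (percentile 92.2). In Bcas3 the share was 3.43% (percentile 4.85) and 24.6% (percentile 34.0). Its exons 25 and 26 lie within the span of the antisense gene 2610027K06Rik, 1 of whose 5 exons lies on a Bcas3 exon. Reads of the 2 genes cannot be told apart there. The terminal exon of Ccdc92b, 3559 nt long, held 89.2% and 96.8% of its exon counts, and Sat2 differed least, with 25.6% and 28.9%. The share of the exon counts in the exons up to the middle of the transcript, counted from the 5′ end, was correspondingly lower at E3.5 in all 9 genes, for example 33.9% and 7.01% in Myo1c and 52.7% and 25.7% in Coil. In Coil and Myo1c this difference was at percentiles 5.41 and 5.35 of all genes, where low percentiles are the largest downward differences.

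**Figure D4:**
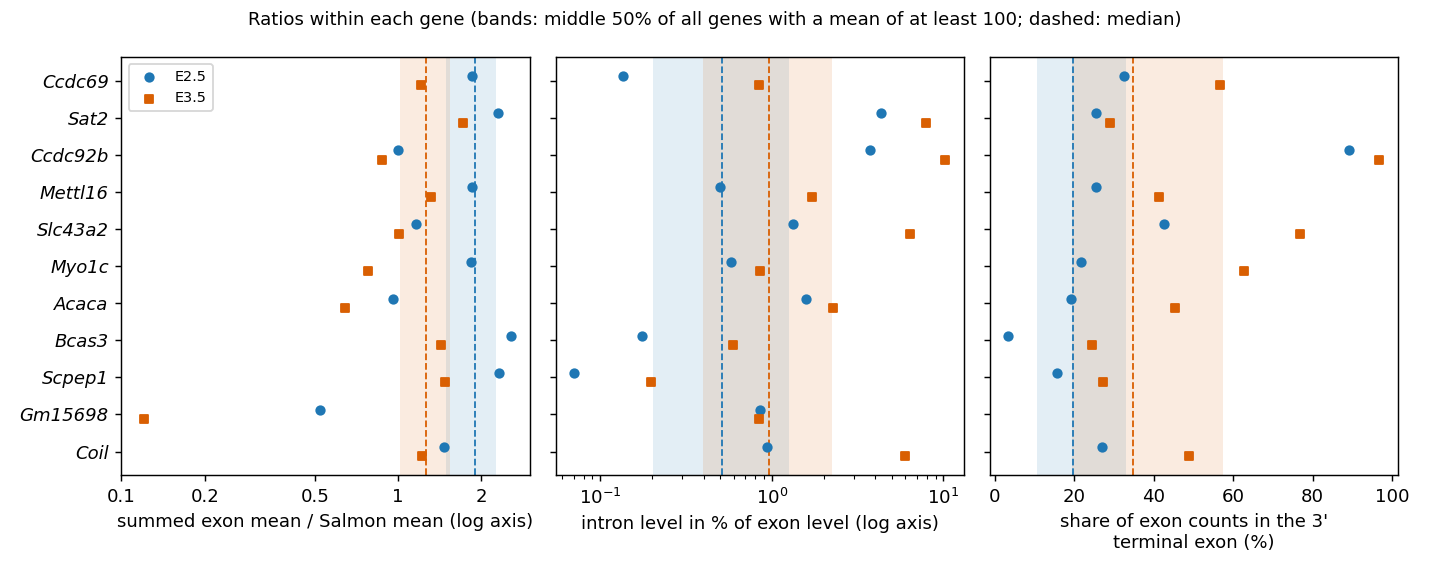
Ratios within each gene at E2.5 (circles) and E3.5 (squares), namely the summed exon mean over the Salmon mean (log axis), the intron level in percent of the exon level (log axis) and the share of exon counts in the 3′ terminal exon in percent, with bands for the middle 50% of all genes with a Salmon mean of at least 100 and dashed lines for their median. Gm15698 at 0.120 lies far left of the bands in the left panel, Coil moves from 0.941% to 6.00% in the middle panel, and in the right panel all 9 genes with a value have the higher share at E3.5.

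The motif that METTL16 recognises in its known targets, the nonamer UACAGAGAA at the centre of the randomised oligonucleotides of this series, was searched as TACAGAGAA on the sense strand of the 10 genes. It occurred 18 times in 8 of them, 21.1 times per Mb, against 24.7 per Mb in all 1843 genes of the chromosome, so the 10 genes were not rich in it. Sites in exons numbered 2 and are shown with 10 bases on either side, the nonamer in capitals (GRCm38, plus strand, chr11:74639158-74639186 and chr11:75577001-75577029), beside the only site in Coil, in intron 1 (chr11:88975501-88975529).
Ccdc92b: tggcagtgatTACAGAGAAcagcaaggct
Slc43a2: gaagtcgtctTACAGAGAAgccttaagtt
Coil: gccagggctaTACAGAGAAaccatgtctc

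The Coil site and 9 others of the 18 lay in repeats, whereas neither exonic site did. A match to the nonamer is a description of the sequence, and whether any of these sites was methylated was not examined.

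Promoter sequences from RefSeq (GRCm38.p6, 250 bases before to 50 after the start) were found for 8 of the 10 genes, with 11 start sites in all. GGGCGG, searched on both strands, was present in 8 of the 11 promoters, against 35.7% of 32851 promoters, CCAAT in 4 of 11 against 37.4%, and TATAAA in 1 of 11, that of Coil, against 13.6%. These counts are a description, as 3 of the 11 promoters belong to Myo1c and 2 to Slc43a2, all of them with GGGCGG. The 32851 promoters were not limited to genes listed in embryos.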

How the data were processed

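RNA of single embryos was amplified by Smart-seq2, which selects polyadenylated RNA and keeps no strand, and sequenced as read pairs of at most 80 nt. According to the labels and the study's methods, the authors quantified RefSeq transcripts (mm10) with Salmon 0.7.2, counted exons and introns with featureCounts after STAR alignment, and normalised counts with DESeq2 1.18.1. The deposited values used here are the authors' means over all embryos of a stage, taken as a signal, that is, normalised counts that are not whole numbers. The other columns hold the authors' log2 fold changes and adjusted p-values between KO, HET and WT embryos and were not used. A count model between genotypes, which had been planned, could not be fitted, as the tables used hold no counts per embryo. Depth per embryo cannot be read from these means and was not used here.

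Exons and introns listed for several transcripts were counted once, from 624032 rows. Within-gene ratios are shown against genes with a Salmon mean of at least 100. Ccdc69 and Slc43a2 at both stages and Sat2 at E3.5 lay below that mean. Features were numbered on the transcript with the most exons. Scripts ran in Python 3.11.15 (pandas 2.3.3) and were tested on simulated data. Spliced members were matched to GENCODE vM21 transcripts with blastn 2.17.0 (at least 90% identity over 80 nt). The 10 genes, the marker lists and the quantities were chosen with earlier results of these data known. The text names the members, Mettl16, the marker genes, genes whose reads cannot be told apart from those of a member, and exons and introns with extreme or overlapping values. The Coil introns shown and the look-alike transcripts were chosen after their values were seen.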

Additional observations from a re-analysis of the deposited data

How the results depend on the processing

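No error or test could be given, since only stage means were analysed. No paired analysis was possible because no value per sample was used and no result comes from a test. The planned count tests between genotypes, without a filter, with another tool or with single embryos left out, were not run for the same reason. With genes below a mean of 10 left out, the median percentile of the 10 genes was 67.6 at E2.5 and 64.9 at E3.5, in place of 79.9 and 78.0, as lowly counted genes leave the comparison. With summed introns over their summed length, the median intron level of the 10 genes at E3.5 was 3.80% of the exon level in place of 1.56%. Counting only genes with a mean of at least 10 at E2.5, the median number between a member and Mettl16 was 137.5 in place of 212.5. Of 20 percentiles of single genes, 18 stayed within 10 points with exon counts in place of Salmon, 16 per kb of exon and 10 with genes below a mean of 10 left out, where Slc43a2 was at 3.28 at E2.5 and Sat2 at 11.7 at E3.5. Of 20 intron levels, all 20 stayed within 1.5-fold with exons of at least 100 nt, 18 with introns that overlap no other gene, and 12 with summed introns. The share of the terminal exon, the match to other transcripts and the nonamer search were added after seeing the data.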
